A study of Homo sapiens with 16 samples.

Results

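HNT-34 is an established human acute myeloid leukaemia (AML) cell line, and its transcript levels without drug were compared with those of 3 other AML lines, AML-193, KG1a and HL60. The comparison used the vehicle samples: 2 arrays of HNT-34 against 6 arrays of the other lines, 2 per line, with the mean of each line given equal weight. These 8 arrays were taken from a series of 16, in which each of the 4 lines received DMSO as vehicle, or azacitidine (AZA) at 0.5 µM, on 3 days and then grew for 4 days without drug. AZA is a nucleoside drug that traps DNA methyltransferases. All lines, controls included, had been kept in the light form of a medium for mass spectrometry that labels lysine and arginine. RNA came from frozen pellets and was read on Affymetrix whole-genome arrays. The data held 14038 genes bright enough to test, out of 19775 with a probe set of their own.

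HNT-34 is known for a rearrangement within chromosome 3 that moves MECOM, the gene of the zinc finger transcription factor EVI1, next to a distal enhancer of GATA2, and for the Philadelphia chromosome, which fuses BCR to the tyrosine kinase gene ABL1. EVI1 is normally made in haematopoietic stem cells, where it supports self-renewal, and it falls as blood cells mature. Among the comparison lines, AML-193 is a monocytic line, HL60 resembles promyelocytes and KG1a is an immature line. The 3 genes given as markers of the untreated HNT-34 cells, MECOM, CRISP3 and ZIC2, were high on both of its arrays, as the values below show.

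Signals are given on the log2 scale, on which a difference of 1 is a 2-fold change. The files give no detection calls, and the lowest signal a gene can have differs between probe sets. Markers of other cell types that were level in the 4 lines ranged from EPCAM, with line means of 3.97 to 4.33, to HBB, with 8.03 to 8.24. The array median was 6.73, and a signal under it is called dim here. Arrays have no read depth, and their number limits the precision. The labels do not say whether the 2 arrays of a line came from separate cultures, and the p-values therefore measure the spread between arrays, which may be technical. HNT-34 is moreover 1 line set against 3, and other properties of the line cannot be told apart from those its rearrangements may bring. The signal difference between the 3-prime and 5-prime ends of control transcripts, a sign of RNA quality, was -0.08 and 0.07 on the HNT-34 arrays and between -0.06 and 0.12 in KG1a and HL60, but it was 1.59 and 0.94 in AML-193. On the AZA arrays used as a further comparison it was 0.84 and 0.61 in HL60, 0.23 and 0.17 in AML-193, and between -0.11 and 0.06 in HNT-34 and KG1a, so that another line stood apart there. A gene was called higher or lower where limma's test of HNT-34 against the mean of the other lines gave an adjusted p under 0.05. A gene was called set apart where HNT-34 also differed from each of the 3 lines on its own, in the same direction, with an adjusted p under 0.05 and by at least 1 log2 unit from the nearest line. A gene that was off in AML-193 alone could therefore not be set apart. AML-193 was, however, the nearest line for 112 genes set apart as high and 87 set apart as low. There its RNA quality can shift the distance, and AML-193 also enters the mean of the other lines. With the 3-prime minus 5-prime difference as a covariate, limma gave 3628 higher and 3443 lower genes, beside 4250 and 4208 without it. That fit set 424 genes apart as high and 376 as low, beside 440 and 369. Every gene called higher or lower also had an unadjusted p under 0.05, and these counts stand beside the counts of 0 set-apart genes given below.

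Most of the transcriptome differed between HNT-34 and the other lines at the level of arrays. HNT-34 had higher signals for 4250 genes (30.3% of those tested) and lower signals for 4208 genes (30.0%), with a median difference of 0.008 over all genes. Of these, 1024 were at least 2-fold higher and 1074 at least 2-fold lower. The stricter criterion left 440 genes set apart as high (3.13%) and 369 set apart as low (2.63%). The nearest line was at least 4 log2 units away for 30 of the high and 31 of the low genes. KG1a was the nearest line most often, for 211 of the high and 154 of the low genes. When each line was reduced to 1 mean value, so that HNT-34 was tested against 3 lines, limma called 0 genes after adjustment, with a smallest adjusted p of 0.0796. At an unadjusted p under 0.05, that test gave 481 higher and 389 lower genes.

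**Figure D1:**
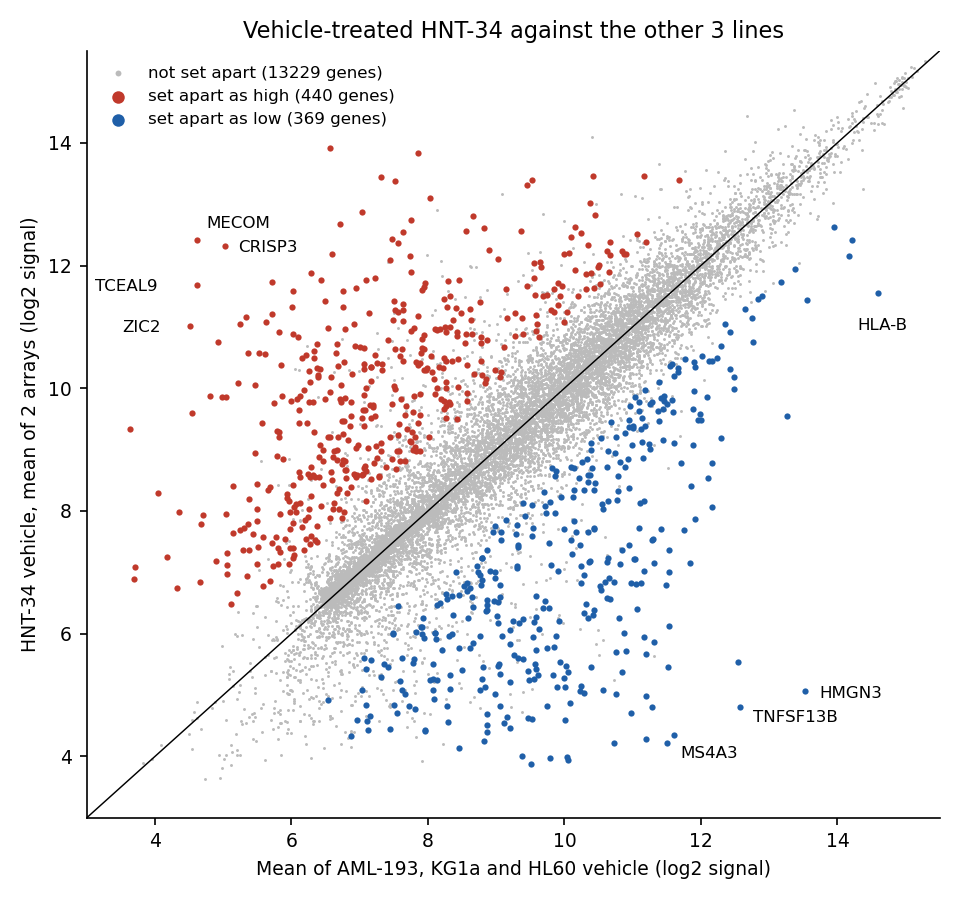
Mean log2 signal of vehicle-treated HNT-34 (2 arrays) against the mean of the AML-193, KG1a and HL60 vehicle groups for 14038 genes; the line marks equal signals. The 440 red genes lie above and the 369 blue genes below all 3 other lines, and MECOM is among the genes farthest from the line.

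The AZA-treated arrays are other arrays of the same lines, under a different condition. Both comparisons took the spread of each gene from the same fit, so that their calls are not independent. There, HNT-34 had 450 genes set apart as high (3.21%) and 397 set apart as low (2.83%). Of the vehicle genes, 298 of the 440 high ones were also set apart as high after AZA, which is 67.7% of the vehicle list and 66.2% of the AZA list. For the low genes the overlap was 281, or 76.2% of the vehicle list and 70.8% of the AZA list. The sign of the difference from each of the 3 lines was kept on the AZA arrays by 425 of the 440 high genes and by 355 of the 369 low genes.

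MECOM was the gene set apart farthest on the high side. Its signal was 12.42 and 12.39 on the HNT-34 arrays, 4.63 and 4.64 in AML-193, 4.56 and 4.55 in KG1a, and 4.54 and 4.76 in HL60. The other lines were dim and level with each other, and the groups were separated by a wide gap. HNT-34 exceeded the mean of the other lines by 7.80 (SE 0.08, limma adjusted p = 2.41e-16), and on its AZA arrays MECOM still read 11.95 and 11.86. Of the 5 MECOM probe sets, 2 reached the array median and gave differences of 7.80 and 7.77, while the other 3 stayed dim in all lines, with differences of 1.23, 0.53 and 0.01. Probe sets of a gene can read different transcripts, and MECOM has several.

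ZIC2, a zinc finger transcription factor of the developing brain, read 11.11 and 10.91 in HNT-34. The 6 arrays of the other lines lay between 4.24 and 4.81, all dim. The difference was 6.50 (SE 0.12, limma adjusted p = 3.31e-14). ZIC2 was the sole set-apart gene among 12 tested ZIC and neural development factors, of which 5 were higher and 4 lower, with a median of 0.08.

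CRISP3, a secreted cysteine-rich protein that neutrophils store in their granules, read 12.32 on both HNT-34 arrays. It was 7.27 and 7.17 in KG1a, and between 3.77 and 4.11 in AML-193 and HL60, so that KG1a held an intermediate level. The difference from the mean was 7.30 (SE 0.10, limma adjusted p = 4.43e-15) and the distance from KG1a was 5.10. Of 6 tested genes of the CRISP and CAP domain family, CRISP3 alone was set apart; 2 were higher and 1 was lower, with a median of -0.00.

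The high signal of MECOM was not shared by the genes beside it. Among the 10 tested genes on either side, in the order of the RefSeq gene table, 8 were higher, 10 lower and 0 set apart as high by limma, and the median difference was -0.13. Over all tested genes 30.3% were higher, 30.0% lower and 3.13% set apart as high, so that 0 of 20 is near the general share. The nearest tested neighbours were ACTRT3, an actin-related gene, with a difference of 0.77 (SE 0.10), and GOLIM4, a Golgi membrane protein, with -0.87 (SE 0.08) and bright probe sets from -0.89 to 0.03. Beyond ACTRT3, the next genes MYNN, LRRC34 and SEC62 differed by 0.30, -1.23 and -0.81. GPR160, an orphan receptor, and PPM1L, a protein phosphatase, were set apart as low, by -4.06 and -3.46 from the mean of the other lines. SKIL, a repressor of SMAD signalling, differed by -0.40.

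GATA2, the progenitor transcription factor whose enhancer the rearrangement is known to move, read 10.73 and 10.79 in HNT-34. It was higher in KG1a (12.09 and 12.03) and lower in HL60 (9.14 and 9.15) and AML-193 (7.03 and 7.15). HNT-34 thus held the second place of 4 lines, with no overlap between lines, and exceeded the mean of the others by 1.33 (SE 0.06, limma adjusted p = 2.16e-10). The other bright GATA2 probe sets gave 0.20 and 0.01. Among the 20 tested genes around GATA2, 5 were higher and 9 lower, with a median of -0.16. The shares over all tested genes were 30.3% higher, 30.0% lower and 3.13% set apart as high. RPN1, a subunit of the oligosaccharyltransferase that lies near GATA2, was lower by -0.74 (SE 0.07). The next gene, RAB7A, a late endosome GTPase, was lower by -0.50 (SE 0.05), with bright probe sets from -0.50 to 0.14. PLXNA1, a semaphorin receptor, was the sole set-apart gene there, with a difference of 2.90 (SE 0.10).

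**Figure D2:**
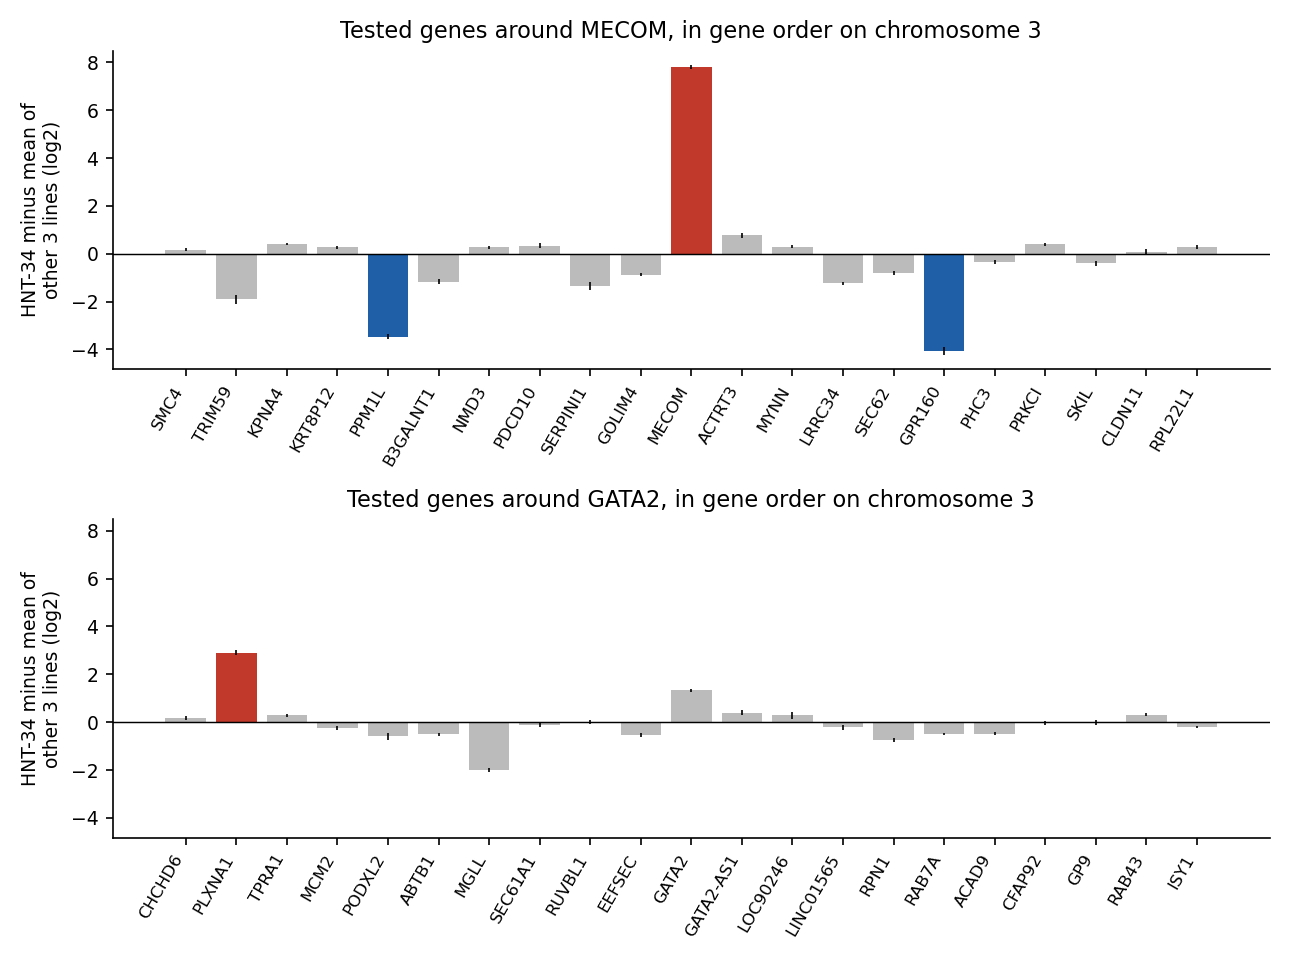
Difference in log2 signal between HNT-34 and the mean of the other 3 lines for the 10 tested genes on either side of MECOM and of GATA2, in gene order on chromosome 3; bars show the difference, error bars the SE, red genes set apart as high and blue ones as low. MECOM rises to 7.80 between neighbours at -0.87 and 0.77.

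The 15 genes set apart farthest on the high side were 5.10 to 7.76 units above the nearest line. After MECOM came TCEAL9, a small protein of the transcription elongation factor A-like family, and BEX3, a small adaptor related to it. TCEAL9 and BEX3 lie next to each other in the order of tested genes on chromosome X. TCEAL9 read 11.74 and 11.63 in HNT-34 and between 4.39 and 4.96 elsewhere, a difference of 7.06 (SE 0.10). BEX3 read 13.91 and 13.93 in HNT-34, which made it an abundant transcript there, and 5.97 to 7.21 in the other lines. Its difference was 7.35 (SE 0.10). All 15 genes were again set apart as high on the AZA arrays.

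GDF15, a stress-induced cytokine of the TGF-beta superfamily, read 11.80 and 11.67 in HNT-34 against 5.38 to 5.99 in the other lines. The long noncoding RNA PURPL, known as a p53-regulated transcript, read 9.49 and 9.17 against 3.51 to 3.83. EEF1A2, a translation elongation factor usually restricted to muscle and neurons, read 12.78 and 12.97 against 6.67 to 7.35. In none of these 3 genes did any array of another line come near the HNT-34 values. The differences from the mean were 6.02 for GDF15, 5.69 for PURPL and 5.85 for EEF1A2, with SEs of 0.09, 0.10 and 0.09.

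The other members of this group were of varied function. DMKN, an epidermal secreted protein, differed by 5.82 and PRSS21, a serine protease known from the testis, by 5.57. RAB13, a GTPase of vesicle traffic to cell junctions, differed by 5.96 and was 5.29 above HL60, its nearest line. TM4SF1, a tetraspanin-like surface protein of endothelial and tumour cells, had 3 bright probe sets that ranged from 5.34 to 6.33. SERPING1, the inhibitor of complement C1, differed by 5.31 (SE 0.15), the largest SE of the 15. SLC35D2, a nucleotide sugar transporter of the Golgi, differed by 5.50 with its brightest probe set, but another of its 3 bright probe sets gave only 0.23. The noncoding locus LOC100506405 differed by 5.79. The largest adjusted p among the 15 was 1.79e-12 in limma.

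The 15 genes set apart farthest on the low side were 4.91 to 7.77 units below the nearest line. In HNT-34 their signals were dim, between 3.80 and 6.15, whereas those of the other lines were above the array median. HMGN3, a nucleosome-binding protein, read 5.23 and 4.90 in HNT-34 and 12.81 to 14.19 in the other lines, a difference of -8.47 (SE 0.08, limma adjusted p = 2.41e-16). TNFSF13B, the B cell survival cytokine BAFF, read 4.64 and 4.98 against 11.82 to 13.58. NUDT19, a nudix hydrolase of peroxisomes, read 4.44 and 4.14 against 11.12 to 11.28, so that the 6 other arrays were almost level with each other. The differences were -7.76 for TNFSF13B and -6.91 for NUDT19.

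Several of these genes encode enzymes of intermediary metabolism. ECHDC1, an ethylmalonyl-CoA decarboxylase, differed by -7.24, PGM1, which interconverts glucose phosphates, by -5.41, and OAT, the mitochondrial ornithine aminotransferase, by -6.48. CA2, a carbonic anhydrase, differed by -6.19. OAT was lowest among the other lines in HL60, at 9.69 and 9.75, which still exceeded the HNT-34 values of 5.10 and 4.52.

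Others act in DNA repair, the cell cycle or the clock. SHPRH, a ubiquitin ligase of damage tolerance, differed by -5.82, CHFR, a ubiquitin ligase of a mitotic checkpoint, by -5.09, and CRY1, a repressor of the circadian clock, by -5.63. CHFR read 5.23 and 5.07 in HNT-34 and 10.13 to 10.41 elsewhere, and its less bright probe set gave -2.51. CALHM6, an ion channel protein of immune cells, differed by -7.00, and ZDHHC2, a palmitoyltransferase, by -5.48. The remaining genes were DNAJC15, a mitochondrial cochaperone (-6.07), CCDC91, a trans-Golgi protein (-5.37), and TPD52, a regulator of vesicle traffic (-5.75). Bright probe sets of DNAJC15 ranged from -6.07 to -0.33, those of ZDHHC2 from -5.48 to -0.86 and those of TPD52 from -5.75 to -1.5. All 15 genes were set apart as low on the AZA arrays as well.

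**Figure D3:**
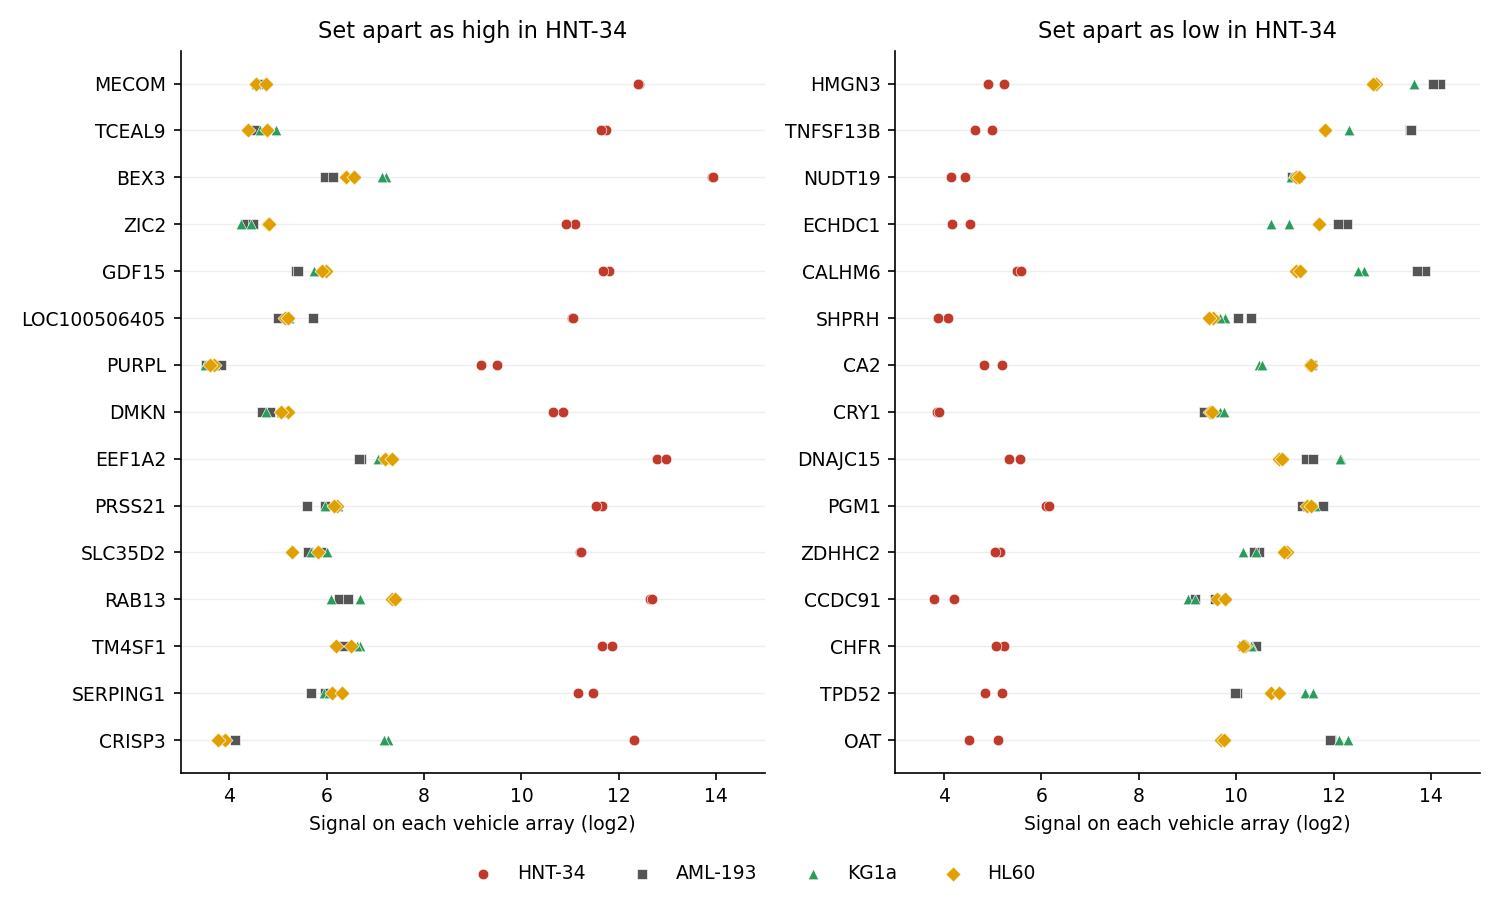
Log2 signal on each of the 8 vehicle arrays for the 15 genes set apart farthest as high (left) and as low (right) in HNT-34, with 1 point per array and 1 symbol per line. The mean of the HNT-34 points is at least 4.91 units from the nearest line mean in every gene.

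Of the 369 low genes, 175 (47.4%) had an HNT-34 signal under the array median, and of the 440 high genes 116 (26.4%) were under it in all 3 other lines. For such genes the low side may be held up by the array's background, in which case the difference is understated. In the promoter table of RefSeq (GRCh38.p14), 335 of the high and 307 of the low genes had a promoter window. The share of windows with a CpG content at or above 0.6 of that expected from their C and G was 65.4% for the high genes, 75.6% for the low genes and 76.0% for the 11212 tested genes with a window, which is given as a description.

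Genes set apart as low were unevenly placed along the genome. Chromosome 6 held 74 of them among 709 tested genes (10.4%, against 2.63% of all genes), beside 15 set apart as high, and its median difference was -0.22. In consecutive windows of 35 tested genes, 6 neighbouring windows of chromosome 6, from SH3BGRL2 to GTF2H5 in gene order, had medians between -1.35 and -0.67. This stretch was picked for its values, which are therefore a description. In the 14 other windows of that chromosome the medians lay between -0.29 and 0.09. The window just after the stretch, from TULP4 to SMOC2, had a median of -0.17, with 6 of its 35 genes set apart as low and 1 as high. The last tested genes of the chromosome, from WDR27 to PDCD2, were too few for a window and differed by -1.58 to -0.04. Low values thus went on beyond the stretch. Of the 210 genes in the stretch, 165 were lower (78.6%) and 14 higher, 50 were set apart as low (23.8%) and 3 as high. The median difference was -0.89 against the mean of the other lines, -1.10 against AML-193, -0.90 against KG1a and -0.70 against HL60.

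The lowering in this stretch was broad rather than confined to a few silent genes. The middle portion of its genes, from the lower to the upper quartile, differed by -1.40 to -0.38, and 164 of the 210 genes kept an HNT-34 signal at or above the array median. On the AZA arrays, which did not serve to pick it, the 6 window medians lay between -1.13 and -0.38, and 36 of the 50 genes were again set apart as low. Over the whole genome 7 of 400 windows had medians of -0.30 or less against each of the 3 lines, and 6 of them were these.

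Named genes of the stretch include regulators of blood cells. MYB, a transcription factor of haematopoietic progenitors, differed by -1.40 (SE 0.06), TNFAIP3, a brake on NF-kB signalling, by -1.76 (SE 0.11), and IFNGR1, a chain of the interferon-gamma receptor, by -1.68. FYN, a SRC family kinase, differed by -4.55 and MAP3K7, the kinase TAK1, by -2.09. ECHDC1, CALHM6 and SHPRH, 3 of the 15 genes farthest on the low side, lie in the stretch, and HMGN3 is the last gene of the window before it. The genes of the stretch set apart as high were TMEM200A (5.82), SAMD3 (2.94) and VNN2 (2.28), which lie close to each other.

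The start of chromosome 17 stood out in the other direction. It too was picked for its values. The 3 windows of the genome with medians of 0.30 or more against each of the 3 lines were its first, second and sixth, and all of its first 6 windows, 210 genes, were raised, with a median of 0.42. Of these 210 genes 132 were higher (62.9%) and 16 lower, and 23 were set apart as high (11%), 16 of them also on the AZA arrays. The rise was steepest at the start: the first 3 windows, 105 genes, had a median difference of 0.66, with 0.54 against AML-193, 0.73 against KG1a and 0.60 against HL60. Of these genes 74 were higher (70.5%) and 4 lower, 16 were set apart as high (15.2%) and 0 as low by limma. The next 3 windows, with medians of 0.22, 0.24 and 0.34, held 58 higher and 12 lower genes, 7 set apart as high and 0 as low. The remaining 626 genes of the chromosome had a median of -0.02, and 18 were set apart as high (2.88%) and 9 as low. Members of the first 3 windows with large differences were NXN, a thioredoxin-like redox protein (4.05), SERPINF1, the secreted factor PEDF (3.80), and HIC1, a transcriptional repressor (2.96). RPA1, a subunit of the single-strand binding complex of DNA replication, differed by 1.19 with its brightest probe set and by -0.03 to 1.63 over all.

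**Figure D4:**
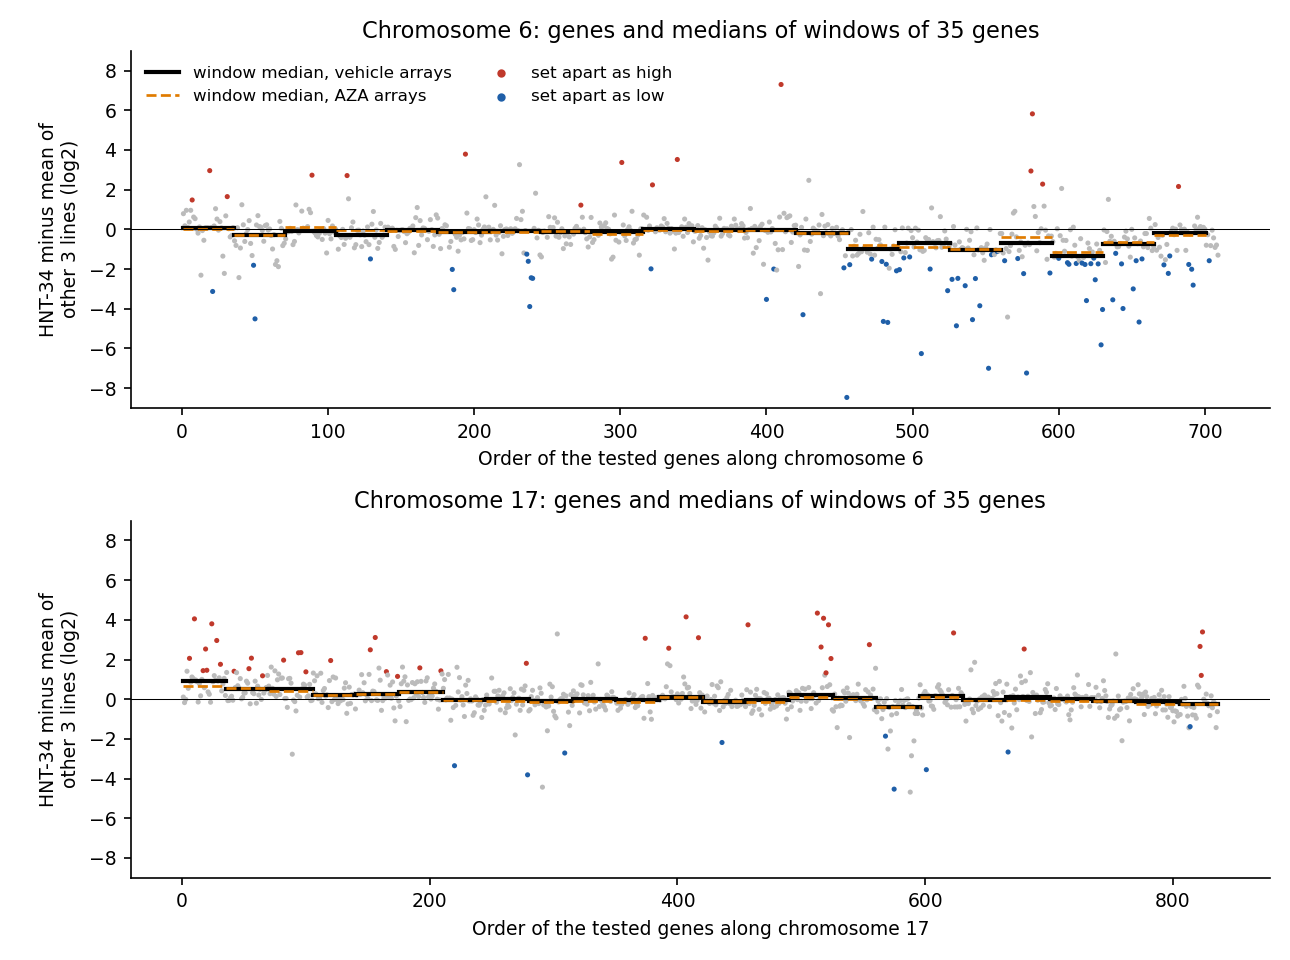
Difference in log2 signal between HNT-34 and the mean of the other 3 lines for each tested gene of chromosomes 6 and 17, in gene order; black lines are medians of windows of 35 genes on the vehicle arrays and dashed lines those on the AZA arrays. The black lines fall to between -1.35 and -0.67 over 6 windows of chromosome 6 and stand at 0.92, 0.50, 0.53, 0.22, 0.24 and 0.34 over the first 6 of chromosome 17.

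Genes of stem and progenitor cells were higher in HNT-34. Of 28 tested markers 21 were higher and 5 lower, with a median of 1.53 against 0.008 over all genes, and 8 were set apart as high (28.6%) and 0 as low. The shares over all genes stand beside each list from here on. They were 30.3% higher, 30.0% lower, 3.13% set apart as high and 2.63% as low. The mean level of the list was 9.90 in HNT-34, 9.65 in KG1a, 7.31 in HL60 and 7.02 in AML-193, so that the immature line KG1a came close. In cultures measured in bulk, more cells of a kind and more RNA per cell cannot be told apart. When KG1a was left out of the other lines, 16 of the markers were set apart as high.

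ADGRG1, the adhesion receptor GPR56 of stem cells, read 13.53 and 13.36 in HNT-34, 9.90 and 9.83 in KG1a and 5.88 to 6.25 in AML-193 and HL60. SPINK2, a protease inhibitor of early progenitors, read 13.36 and 13.37, with 9.37 and 9.31 in KG1a and 6.22 to 6.94 in the other lines. KIT, the receptor of stem cell factor, read 10.73 and 10.84, with KG1a next at 9.16 and 8.99. All 3 had the same order, HNT-34 first and KG1a second. The differences from the mean were 6.13, 5.84 and 3.38. EMCN, a sialomucin of endothelium and stem cells, differed by 3.80, and GUCY1A1, a subunit of guanylate cyclase, by 4.42.

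CD34, the surface antigen that defines the compartment, was not set apart. It read 11.80 and 11.69 in HNT-34, below KG1a (12.46 and 12.64) and above AML-193 and HL60 (7.55 to 7.91). HOPX, a homeodomain protein of quiescent progenitors, was likewise highest in KG1a, by 1.22 over HNT-34. FLT3, a receptor kinase of progenitors, was highest in HL60, and HNT-34 lay 0.93 below that line.

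Among megakaryocyte and platelet genes, 12 of 29 were higher and 9 lower, with a median of 0.10, but 6 were set apart as high (20.7%) and 1 as low. VWF, the adhesive protein of platelets and endothelium, read 11.70 and 12.07 in HNT-34 and 5.35 to 7.24 elsewhere; its other bright probe set gave 0.65 in place of 5.60. ITGA2B, the platelet integrin CD41, read 11.63 and 11.80, with KG1a next at 9.96 and 9.66. CD9, a tetraspanin of platelets, read 10.38 and 10.28 against 6.07 to 6.55. These 3 genes differed by 5.60, 3.75 and 3.95 from the mean of the other lines. LTBP1, which binds latent TGF-beta, differed by 2.60 and GP6, the platelet collagen receptor, by 1.93. THBS1, thrombospondin, differed by 1.63 with its brightest probe set and by 0.79 to 5.73 over 4 of them. PLEK, a platelet kinase substrate, was set apart as low, by -1.30. PF4, the platelet chemokine that defines mature cells, differed by 0.16 (SE 0.10, limma adjusted p = 0.184).

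Some endothelial and epithelial genes were high as well. Of 28 listed epithelial and stromal markers 17 were tested. A gene could pass the brightness filter through the HNT-34 arrays alone, so that the shares of the 17 are not those of the list. Of the 17, 7 were higher and 1 lower, the median was 0.05, and 5 were set apart as high (29.4%) and 0 as low. CDH5, VE-cadherin of endothelial junctions, read 9.81 and 9.94 in HNT-34 and 4.68 to 4.92 elsewhere. TIE1, an endothelial receptor kinase, differed by 4.83, KRT18, a keratin, by 4.99, its partner KRT8 by 1.35 and ACTA2, smooth muscle actin, by 2.93. VIM, the intermediate filament vimentin, which was on no list, read 13.39 and 13.25 against 8.72 to 10.14. Of the defining markers of these cell types, EPCAM read 4.33, CDH1 5.07, KRT19 5.63, COL3A1 5.74 and KDR 5.12 in HNT-34, all dim and within 0.40 of every other line's mean. None of these was bright enough to be tested, so that they are not among the 17. TEK, at 6.96, was level with the other lines (6.9 to 7.0). COL1A1, a collagen chain, was bright in every line, at 9.83 in HNT-34 and 9.29 to 9.94 in the others. PTPRC, the leukocyte antigen CD45, read 12.92 and 12.98.

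Of 16 tested genes listed as linked to MECOM, with MECOM itself among them, 9 were higher and 6 lower, with a median of 1.12. As high 2 were set apart (12.5%), MECOM and ADGRG1, and 1 as low (6.25%). MECOM was given as a marker of these cells and counts in these values, so that ADGRG1 was the sole further gene set apart as high. ANGPT1, a ligand of the receptor TEK, was high in HNT-34 (12.40 and 11.94) and about as high in KG1a (11.57 and 12.08), and it was 5.90 to 6.33 in the other lines. ERG, an ETS transcription factor of stem cells, was level in HNT-34 (10.69 and 10.89) and KG1a (10.96 and 10.81). ZBTB16, the transcription factor PLZF, was set apart as low at 5.70 and 5.48, and its signal was 12.34 and 12.13 in KG1a. Of 9 tested genes of the PRDM family, to which MECOM belongs, 3 were higher and 6 were not called by limma, and MECOM alone was set apart; the median was 0.04.

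Most of the tested HOX and TALE homeobox genes, which set the identity of progenitors, were higher. Of 31 listed genes 16 were tested, and a gene could pass the brightness filter through the HNT-34 arrays alone. Of the 16, 10 were higher and 3 lower, with a median of 0.97, and 6 were set apart as high (37.5%) and 0 as low. Most of the 6, namely HOXB2, HOXB3, HOXB6 and HOXB9, lie close together on chromosome 17 and are not separate loci. HOXB4, HOXB5 and HOXB7 lie among them and were not set apart, with differences of 1.21, 0.64 and 0.73. HOXB3 read 11.20 and 11.24 in HNT-34, 9.41 and 9.07 in AML-193 and 5.49 to 6.62 in KG1a and HL60. HOXB6 had a mean of 9.88 over both arrays, with AML-193 next at 7.37 on both arrays. HOXB2 read 11.44 and 11.36, with KG1a next at 10.07 and 10.26. The nearest line thus differed from gene to gene, and the differences from the mean were 4.08, 3.75 and 2.63. HOXB9, HOXD8 and MEIS2 were set apart by mean differences of 2.05, 2.07 and 3.18. MEIS1, a cofactor of HOX proteins, was as high in KG1a (10.63 and 10.61) as in HNT-34 (10.77 and 10.86), and was not set apart.

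Haematopoietic transcription factors were more often lower than higher. Of 41 tested 14 were higher and 21 lower, with a median of -0.31, and 2 were set apart as high (4.88%) and 3 as low (7.32%). Over all genes 30.3% were higher and 30.0% lower, and 3.13% were set apart as high and 2.63% as low. Both set-apart shares of the list thus lay above those of all genes, on few genes each. HLX, a homeobox factor of myeloid cells, differed by 1.98 and was 1.02 above the nearest line. TCF4, the E protein of plasmacytoid dendritic cells, read 6.20 and 5.36 in HNT-34 and 9.37 to 10.57 in the other lines, and its 7 bright probe sets gave -4.73 to -1.68. IKZF1, the lymphoid and myeloid regulator Ikaros, differed by -1.41, but its 8 bright probe sets gave values of both signs, from -1.65 to 0.91. GFI1B, a repressor of erythroid and megakaryocytic cells, was high in HNT-34 (12.00 and 11.94) and in KG1a (11.50 and 11.58). CEBPE, a factor of late granulocytes, was at 7.01 and 6.62 in HNT-34, level with KG1a (6.77 and 6.93), and at 11.65 and 11.72 in HL60. SPI1, the myeloid factor PU.1, was lower by -0.88 (SE 0.06), and CEBPA by -0.98 (SE 0.09).

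Targets of STAT5 and of ABL kinase signalling, which the Philadelphia fusion is known to drive, were mostly higher. Of 30 tested, 24 were higher and 1 lower (all genes: 30.3% and 30.0%), with a median of 0.83. Set apart as high were 5 (16.7%, against 3.13% of all genes), and 0 as low. SOCS2, a feedback inhibitor of cytokine signalling, read 13.35 and 13.46 in HNT-34, with AML-193 next at 11.09 and 10.88, and its 3 bright probe sets gave 1.71 to 5.03. DUSP4, a phosphatase that acts on ERK, read 11.37 and 11.28, with AML-193 next at 9.11 and 9.14. PIM2, a survival kinase, read 11.21 and 11.10 against 9.29 to 9.47 in the other lines. All 3 were set apart on the AZA arrays too. SPRY4 and DUSP5, inhibitors of the same ERK cascade, differed by 2.02 and 1.58.

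The most familiar STAT5 targets were not set apart. CISH read 12.08 and 12.13 in HNT-34 and was higher in AML-193 (12.74 and 12.78), and PIM1 read 12.63 and 12.73 and was also higher in AML-193 (13.74 and 13.79). BCL2L1, a survival gene, was higher in HNT-34 by 1.74 with AML-193 nearest at 0.84. ABL1 itself differed by 0.58 (SE 0.14, limma adjusted p = 0.00219) and BCR by -0.11 (SE 0.10, limma adjusted p = 0.399), with bright BCR probe sets from -0.47 to 0.45. These probe sets cannot tell fused from normal transcripts. With the mean of all probe sets per gene, 8 members of the list were set apart, and without AML-193 or without KG1a as a comparison line 9 were.

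Targets of p53 were among the groups with many set-apart genes. Of 32 tested, 18 were higher and 5 lower (all genes: 30.3% and 30.0%), with a median of 0.51. Set apart as high were 8 (25%, against 3.13% of all genes), and as low 1, CDKN2A (3.12%, against 2.63%). CDKN1A, the cell cycle inhibitor p21, read 12.28 and 12.23 in HNT-34 and 8.26 to 9.56 elsewhere. TP53I3, a redox enzyme, read 11.11 and 11.08 against 7.15 to 8.28. PLK2, a kinase of the centriole cycle, read 9.90 and 9.82 against 4.44 to 5.84. HNT-34 was the highest line in all 3, by 2.74, 2.85 and 4.14 over the nearest. TNFRSF10B, a death receptor of TRAIL, differed by 4.68 with its brightest probe set and by 0.49 with the one that moved least. BAX, the death effector, differed by 1.20, FAS, a death receptor, by 1.43, and GADD45A, a damage-induced regulator, by 1.50.

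MDM2, the ubiquitin ligase of p53, was higher by 0.99 (SE 0.11) and lay 0.71 above the nearest line. XPC, a sensor of DNA damage, differed by 0.77. Not all targets followed: SESN1 was highest in KG1a, by 0.80 over HNT-34, and PHLDA3 differed by 0.01 (SE 0.08). CDKN2A, the listed gene set apart as low, read 7.98 and 7.70 against 8.79 to 12.08. It encodes the ARF inhibitor of MDM2, which acts upstream of p53, so that it is not a target in the sense of the others. GDF15 and PURPL, described above, are known p53 targets outside the list. Of the 19 tested genes of the BCL2 family 4 were higher and 7 lower, with a median of 0.05, and BAX alone was set apart (5.26%). BIK, a BH3-only protein, was lower by -1.77, and BCL2 itself was higher by 0.18 (SE 0.06), with HL60 above HNT-34 and probe sets from -0.02 to 0.24.

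Myeloid maturation genes were low. Of 36 tested granulocyte markers, 24 were lower and 6 higher, with a median of -1.08; 5 were set apart as low (13.9%), and CRISP3 was set apart as high (2.78%). MS4A3, a marker of granulocyte-monocyte progenitors, read 4.22 on both HNT-34 arrays, 7.61 and 7.49 in KG1a, and 12.85 to 14.11 in AML-193 and HL60. CSF3R, the G-CSF receptor, read 7.14 and 7.29 against 10.46 to 12.00. FUT4, which makes the CD15 antigen, read 7.12 and 6.91 against 9.87 to 11.95. These signals were low in HNT-34 against all 3 lines, and the differences from the mean were -7.28, -3.80 and -4.14. RNASE2, an eosinophil ribonuclease, differed by -4.93 and CXCR2, a chemokine receptor of neutrophils, by -2.90.

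The enzymes of the primary granules separated the lines into pairs. MPO, myeloperoxidase, read 5.8 and 6.0 in HNT-34 and 6.94 and 6.55 in KG1a, but 10.57 and 10.56 in AML-193 and 14.44 and 14.36 in HL60. ELANE, AZU1 and PRTN3, the neutrophil serine proteases and their inactive relative, lay within 0.29 of KG1a and differed by -3.26, -4.85 and -4.36 from the mean of the other lines. The mean level of the granulocyte list was 7.23 in HNT-34, 7.29 in KG1a, 9.49 in HL60 and 9.57 in AML-193. When KG1a was left out of the other lines, 17 of its members were set apart as low.

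Of 35 monocyte and macrophage markers, 24 were lower and 3 higher, with a median of -0.52; 3 were set apart as low (8.57%) and 1 as high (2.86%). LYZ, lysozyme, read 6.80 on both HNT-34 arrays, 9.61 and 9.80 in KG1a and 11.94 to 12.80 in the other lines. CLEC12A, a lectin of myeloid blasts, read 5.30 and 5.48, with KG1a at 6.99 and 6.77. S100A8 read 5.20 and 5.29, and KG1a, at 6.20 and 6.28, was too near for it to be set apart. FCGR2A, an Fc receptor, differed by -1.62. CD36, a scavenger receptor that megakaryocytes also carry, was the member set apart as high, at 8.13 and 7.76 against 4.84 to 5.31. With the mean of all probe sets per gene, 1 monocyte marker was set apart as low in place of 3.

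Other lineages gave at most 3 set-apart genes per list in either direction. Over all genes 3.13% were set apart as high and 2.63% as low, and all but the B cell list lay above these shares, on few genes each. Erythroid markers (25 tested) were higher in 9 and lower in 8 cases, with a median of -0.08; EPB41 was set apart as high (4.00%) and CA2 as low. Markers of eosinophils, basophils and mast cells (19 tested) were higher in 5 and lower in 9, with a median of -0.16; KIT was set apart as high (5.26%), and RNASE2 and CSF2RB, the shared chain of the GM-CSF, IL-3 and IL-5 receptors, as low (10.5%). Of 30 T and NK cell markers 8 were higher and 14 lower, with a median of -0.22; CD7, LEF1 and IL32 were set apart as high (10%) and NKG7 and CCL5 as low (6.67%). CD7, an antigen of early T cells and of some leukaemias, read 9.05 and 9.11 against 6.14 to 6.59. Of 22 B cell markers 6 were higher and 4 lower, with a median of 0.04, and 0 were set apart; IGHM, the immunoglobulin mu chain, was high in HNT-34 (12.01 and 12.16) and in KG1a (11.33 and 11.22). Of 18 dendritic cell markers 8 were higher and 5 lower, with a median of 0.05; CLEC10A and ZBTB46 were set apart as high (11.1%) and TCF4 as low (5.56%).

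Surface molecules divided in both directions. Of 42 tested surface targets of AML, 21 were higher and 15 lower (all genes: 30.3% and 30.0%), with a median of 0.26. Set apart as high were 6 (14.3%, against 3.13% of all genes), and as low 3 (7.14%, against 2.63%). TNFRSF8, the antigen CD30, read 10.30 and 10.47 against 6.45 to 7.62 and was set apart with KIT, CD7, CD9, CD36 and TNFRSF10B. CXCR4, the homing receptor for the marrow, read 6.71 and 6.91 in HNT-34, 8.93 and 9.21 in KG1a and 10.85 to 13.06 in the other lines. SLC22A16, a carnitine transporter, read 6.09 and 5.93 against 9.76 to 12.17, and it lies in the chromosome 6 stretch described above. CD44, an adhesion receptor, was higher than the mean by 2.11 but was level with KG1a, and its 10 bright probe sets ranged from -0.47 to 2.77.

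Cytokine receptors were more often set apart as low. Of 43 tested, 18 were higher and 18 lower (all genes: 30.3% and 30.0%), with a median of -0.08. Set apart as low were 7 (16.3%, against 2.63% of all genes), and as high 2 (4.65%, against 3.13%). The share set apart as high is thus near the general one. IL2RG, the common gamma chain, read 7.44 and 7.31 in HNT-34 against 10.46 to 12.63. INSR, the insulin receptor, read 7.45 and 7.61 against 9.89 to 11.94. CSF2RB read 9.16 and 9.0 against 10.82 to 11.10. With CSF3R, IL6R, IL18R1 and IFNGR1 these receptors made up the low group, and IFNGR1 lies in the chromosome 6 stretch described above. KIT and IL10RA, a chain of the IL-10 receptor (10.43 and 10.42 against 6.11 to 9.26), were set apart as high.

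Of 42 chemokine and other G protein-coupled receptors 26 were lower and 6 higher (all genes: 30.0% and 30.3%), with a median of -0.57. Set apart as low were 5 (11.9%, against 2.63% of all genes), and as high 3 (7.14%, against 3.13%). PTGER4, a prostaglandin E receptor, read 4.43 and 4.77 against 7.79 to 11.27, although its other bright probe set gave -0.44. C3AR1, P2RY8, CXCR2 and CXCR4 were the other low members. CCR10, a skin-homing chemokine receptor, read 9.0 and 8.77 against 5.60 to 5.92 and was set apart as high with ADGRG1 and CCRL2. Of 46 integrins and adhesion molecules 20 were higher and 17 lower, with a median of 0.07. Set apart as high were 6 (13%, against 3.13% of all genes), and as low 3 (6.52%, against 2.63%). ICAM4, an erythroid adhesion molecule, differed by 4.44 and JAM3, a junctional adhesion molecule, by 3.31, whereas ALCAM, the antigen CD166, read 8.05 and 8.09 against 11.73 to 12.97.

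Genes of MHC class I presentation were low in HNT-34. In this pathway the proteasome cuts proteins, TAP carries the peptides into the endoplasmic reticulum, and the HLA heavy chains with B2M display them; NLRC5 is the known transactivator of the set. Of 24 tested genes, 17 were lower and 5 higher, with a median of -0.57, and 7 were set apart as low (29.2%) and 0 as high. The 7 were the transactivator NLRC5, the heavy chains HLA-B and HLA-C, the transporter genes TAP1 and TAP2 and the immunoproteasome genes PSMB8 and PSMB9. On the AZA arrays 5 of the 7 were set apart as low.

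The promoters of HLA-B and HLA-C, which were set apart, are shown with that of B2M, which was not, because class I genes are known to respond to interferon and NLRC5 through short promoter elements, whose letters all 3 windows hold. Each line gives the 200 bases before the RefSeq start site (GRCh38.p14), 5′ to 3′ on the gene's strand: chr6:31357180-31357379 (minus) for HLA-B, chr6:31272093-31272292 (minus) for HLA-C and chr15:44711317-44711516 (plus) for B2M. Capitals mark matches to AANNGAAA (interferon response type), TGACG (core of the X2 box) and CCAAT (core of the Y box) on either strand, whose reverse complements are TTTCNNTT, CGTCA and ATTGG; matches that overlap run together.
HLA-B: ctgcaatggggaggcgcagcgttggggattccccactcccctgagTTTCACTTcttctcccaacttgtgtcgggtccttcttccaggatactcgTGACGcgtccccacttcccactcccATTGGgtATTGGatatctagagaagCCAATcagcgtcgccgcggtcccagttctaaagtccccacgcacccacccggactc
HLA-C: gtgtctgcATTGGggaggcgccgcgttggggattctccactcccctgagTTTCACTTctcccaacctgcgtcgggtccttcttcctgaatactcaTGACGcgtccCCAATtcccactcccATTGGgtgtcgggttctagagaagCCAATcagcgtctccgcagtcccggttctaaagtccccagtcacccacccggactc
B2M: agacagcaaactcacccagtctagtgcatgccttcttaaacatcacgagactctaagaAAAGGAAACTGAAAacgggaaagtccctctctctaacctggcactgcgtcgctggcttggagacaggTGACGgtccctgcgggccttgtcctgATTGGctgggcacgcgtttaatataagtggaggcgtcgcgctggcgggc
Among 27305 RefSeq promoters, 16.4% held AANNGAAA, 18.9% TGACG, 28.9% CCAAT and 0.74% all 3 in the same window. The windows of 3 further genes set apart as low did not hold all 3: TAP1 had 2 matches to AANNGAAA and 0 to the others, and PSMB9 and PSMB8 each had 1 match to TGACG and 0 to the others. A match is a description of the letters and not of binding.

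NLRC5 read 6.37 and 6.60 in HNT-34 and 9.93 to 10.89 in the other lines, a difference of -3.83 (SE 0.09, limma adjusted p = 4.14e-13). HLA-B read 11.57 and 11.53 against 14.31 to 14.86, and its 3 bright probe sets gave -3.15 to -2.90. HLA-C read 12.19 and 12.11 against 13.70 to 14.54, with -2.95 to -1.98 over 4 probe sets. Both heavy chains still gave bright signals, but below every array of every other line. The HLA genes are alike and polymorphic, and a probe set can miss an allele or read a relative, which these data cannot separate. B2M, in contrast, read 14.51 and 14.42 against 14.31 to 14.82 and differed by -0.16 (SE 0.07, limma adjusted p = 0.0484), a call that 13 other settings lost. Its 3 bright probe sets gave -0.96 to -0.16.

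The peptide supply showed the same direction. TAP1, a subunit of the peptide transporter, read 8.10 and 8.12 against 10.13 to 10.90, and its partner TAP2 read 9.76 and 9.66 against 10.85 to 11.07. PSMB9, a catalytic subunit of the immunoproteasome, read 9.67 and 9.32 against 11.74 to 12.31. PSMB8, another such subunit, read 11.06 and 11.22 against 12.57 to 12.94. The differences were -2.44, -1.25, -2.47 and -1.61. These 4 genes lie close together on chromosome 6, outside the stretch described above. HLA-E, a class I molecule read by NK cells, was the exception among the heavy chains, at 14.18 and 14.28 against 12.65 to 13.46, a difference of 1.10 (SE 0.06). HLA-F, a non-classical heavy chain, was lower by -1.01. CALR, a chaperone of the loading complex, was lower by -0.62, and CANX, calnexin, differed by 0.04 (SE 0.06), with probe sets of both signs.

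Interferon-stimulated genes did not show such a lean. Of 62 tested 29 were higher and 25 lower, with a median of -0.01, and 2 were set apart as low (3.23%) and 0 as high. HERC5, the ligase of the ubiquitin-like ISG15, differed by -4.29, and TNFSF10, the death ligand TRAIL, by -3.05. IFITM1 and IFITM3, membrane proteins that block virus entry, were higher by 1.84 and 1.76. IRF1, an interferon-induced activator of class I genes, read 9.47 and 9.48 in HNT-34, level with AML-193 (9.52 and 9.42) and below KG1a and HL60.

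Of 18 MHC class II genes 7 were higher and 6 lower, with a median of -0.00; HLA-DRB4 and CD80 were set apart as high (11.1%) and 0 genes as low. HLA-DRB4, a beta chain gene that only some haplotypes carry, read 10.07 and 10.16 against 7.06 to 7.24. HLA-DRA, the alpha chain, read 11.94 and 12.00, between KG1a (14.02 and 13.99) and the other lines (5.71 to 6.30). CIITA, the class II transactivator, read 7.03 to 7.53 over all lines and differed by -0.18 (SE 0.08, limma adjusted p = 0.084).

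Genes of cholesterol biosynthesis were low. Of 26 tested, 19 were lower and 5 higher, with a median of -0.88; 8 were set apart as low (30.8%) and 0 as high. SC5D, the sterol C5 desaturase, read 5.35 and 5.21 in HNT-34 and 9.37 to 10.52 elsewhere. ACAT2, which makes acetoacetyl-CoA at the start of the pathway, read 9.71 and 9.62 against 11.79 to 12.03. HMGCS1, which makes the next intermediate, read 8.12 and 8.04 against 9.31 to 10.16. DHCR7, which acts at the last step, read 9.66 and 9.60 against 10.83 to 11.80. These enzymes of early and late steps were low, by -4.72, -2.22, -1.64 and -1.74. LSS, lanosterol synthase, differed by -2.01 and HSD17B7, a sterol reductase, by -1.61.

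Other genes of the pathway moved less. SQLE, squalene epoxidase, differed by -0.36 (SE 0.19, limma adjusted p = 0.111) with HNT-34 above AML-193 and HL60, and MVD, mevalonate decarboxylase, differed by 0.04 (SE 0.08). SREBF2, the transcription factor of the pathway, was lower by -0.82 (SE 0.06). On the AZA arrays 3 of the 8 genes were set apart as low. In HNT-34, HMGCS1 read 9.64 and 9.58 and DHCR7 10.61 and 10.52 on the AZA arrays. With the mean of all probe sets per gene, 4 genes of the list were set apart. ACAT2 lies on the long arm of chromosome 6 near the stretch described above.

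Genes of mitosis were modestly lower. Of 50 tested G2/M genes 34 were lower and 6 higher, with a median of -0.41, but 1 alone, the spindle checkpoint kinase TTK (-1.78), was set apart (2.00%), and it lies in the chromosome 6 stretch. MKI67, the proliferation antigen, had a mean of 10.02 in HNT-34 and read 10.44 and 10.52 in KG1a and 11.28 to 11.58 in the other lines. TOP2A, a topoisomerase of mitosis, and BIRC5, survivin, were each lower by -0.96. Of 51 genes of DNA replication 24 were lower and 11 higher, with a median of -0.16; E2F8, a repressor of the E2F family, was set apart as low at 6.64 and 6.42 against 9.23 to 10.32 (1.96%), while PRIM1, a primase subunit, was higher by 0.96. Of 34 genes of ribosome biogenesis and MYC 12 were higher and 6 lower, with a median of 0.06, and 0 were set apart; MYC differed by -0.06 (SE 0.16, limma adjusted p = 0.763), and MYCN was higher by 2.92 with KG1a next.

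The genes of DNA methylation and of AZA metabolism are of interest because the other arm of the study uses that drug. Of 25 genes of the methylation machinery, 7 were higher and 11 lower, with a median of -0.06, and GADD45A alone was set apart (4.00%). DNMT1, the maintenance methyltransferase, did not differ by the test, at 11.50 and 11.57 against 11.38 to 11.73 (difference 0.03, SE 0.08, limma adjusted p = 0.795). DNMT3B, a de novo methyltransferase, read 12.11 and 12.32 in HNT-34, 11.58 and 11.41 in KG1a, 9.69 and 9.50 in AML-193 and 7.83 and 7.81 in HL60. DNMT3A read 10.49 and 10.56, with AML-193 next at 10.05 and 9.88 and KG1a and HL60 between 7.62 and 8.13; its other bright probe sets gave as little as 0.27. HNT-34 was the highest line for both de novo enzymes, by 0.72 and 0.56 over the nearest. UHRF1, which guides DNMT1, was lower by -0.21 (SE 0.06). Of the TET demethylases, TET1 differed by -0.02 (SE 0.09), TET2 by 0.80 with AML-193 dim and KG1a and HL60 above HNT-34, and TET3 by -0.83 with bright probe sets of both signs.

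Of 26 genes of AZA uptake and metabolism 11 were higher and 7 lower, with a median of 0.00, and SAMHD1 alone was set apart (3.85%). SAMHD1, a nucleotide hydrolase known to inactivate decitabine, read 6.84 and 6.87 in HNT-34, 8.07 and 8.05 in KG1a, 11.23 and 11.28 in HL60 and 12.57 and 12.41 in AML-193. UCK1, a kinase that activates AZA, differed by 0.15 (SE 0.07, limma adjusted p = 0.0654). DCK, which activates deoxycytidine analogues, was lower by -0.91 (SE 0.08). CDA, which deaminates AZA, read 8.86 and 8.79, below AML-193 (10.55 and 10.96) and above the other lines. SLC29A1, the nucleoside transporter ENT1, was lower by -1.20 (SE 0.18), and ABCB1, a drug efflux pump, was dim in HNT-34 and at 11.50 on both KG1a arrays.

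Several smaller gene families had members set apart in both directions. Among 17 S100 genes 9 were higher and 4 lower, with a median of 0.30; 4 were set apart as high (23.5%) and 2 as low (11.8%). S100B, a calcium sensor of glia and melanocytes, read 12.16 and 12.19 against 5.99 to 7.49, and S100A16 read 11.79 and 11.69 against 7.99 to 8.57. S100A6 read 5.08 and 5.75 in HNT-34 and was nearest in HL60, at 6.93 and 7.09. Among 9 annexins 4 were higher and 4 lower, with a median of -0.06; ANXA2 was set apart as high by 1.69 and ANXA6 as low by -4.04 (11.1% each). Among 18 imprinted genes 7 were higher and 5 lower, with a median of 0.06; MEST, a hydrolase made from the paternal copy, read 13.80 and 13.85, with KG1a next at 12.34 and 12.30, and PHLDA2 differed by 4.57. Both were set apart as high, and PLAGL1 and ZNF331 as low (11.1% each).

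Metabolic and stress lists differed from each other. Of 39 genes of the ATF4 response 28 were higher and 8 lower, with a median of 0.51, but INHBE, an activin subunit, was alone in being set apart (2.56%), by 4.01. ASNS, asparagine synthetase, read 13.77 and 13.54, with HL60 next at 12.85 and 12.89, while PSAT1, an enzyme of serine synthesis, was at 7.38 and 7.43 and at 12.43 to 13.12 in KG1a and HL60. Of 25 glycolysis genes 9 were higher and 9 lower, with a median of -0.08; HK1, hexokinase, was set apart as low at 7.16 and 6.84 against 10.10 to 12.30 (4.00%). Of 24 metallothionein and NRF2 genes 8 were higher and 11 lower, with a median of -0.07; NQO1, a quinone reductase, and HMOX1, haem oxygenase, were set apart as high (8.33%), by 2.74 and 2.47.

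Of 32 targets of TNF and NF-kB 13 were higher and 16 lower, with a median of -0.20; CXCL3 and LTB were set apart as high and CCL5 and TNFAIP3 as low (6.25% each). Lymphotoxin beta, LTB, read 12.67 and 12.55 against 8.0 to 9.89. Of 26 immediate early genes 11 were higher and 5 lower, with a median of 0.03, and 0 were set apart; ATF3 was higher by 2.13 (SE 0.09). Of 19 cancer-testis and germline genes 5 were higher and 2 lower, with a median of 0.06, and 0 were set apart; PRAME was high in HNT-34 (11.84 and 11.82) and HL60 (11.88 and 11.91) alike. Of 28 housekeeping genes 6 were higher and 10 lower, with a median of -0.05, and 0 were set apart.

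**Figure D5:**
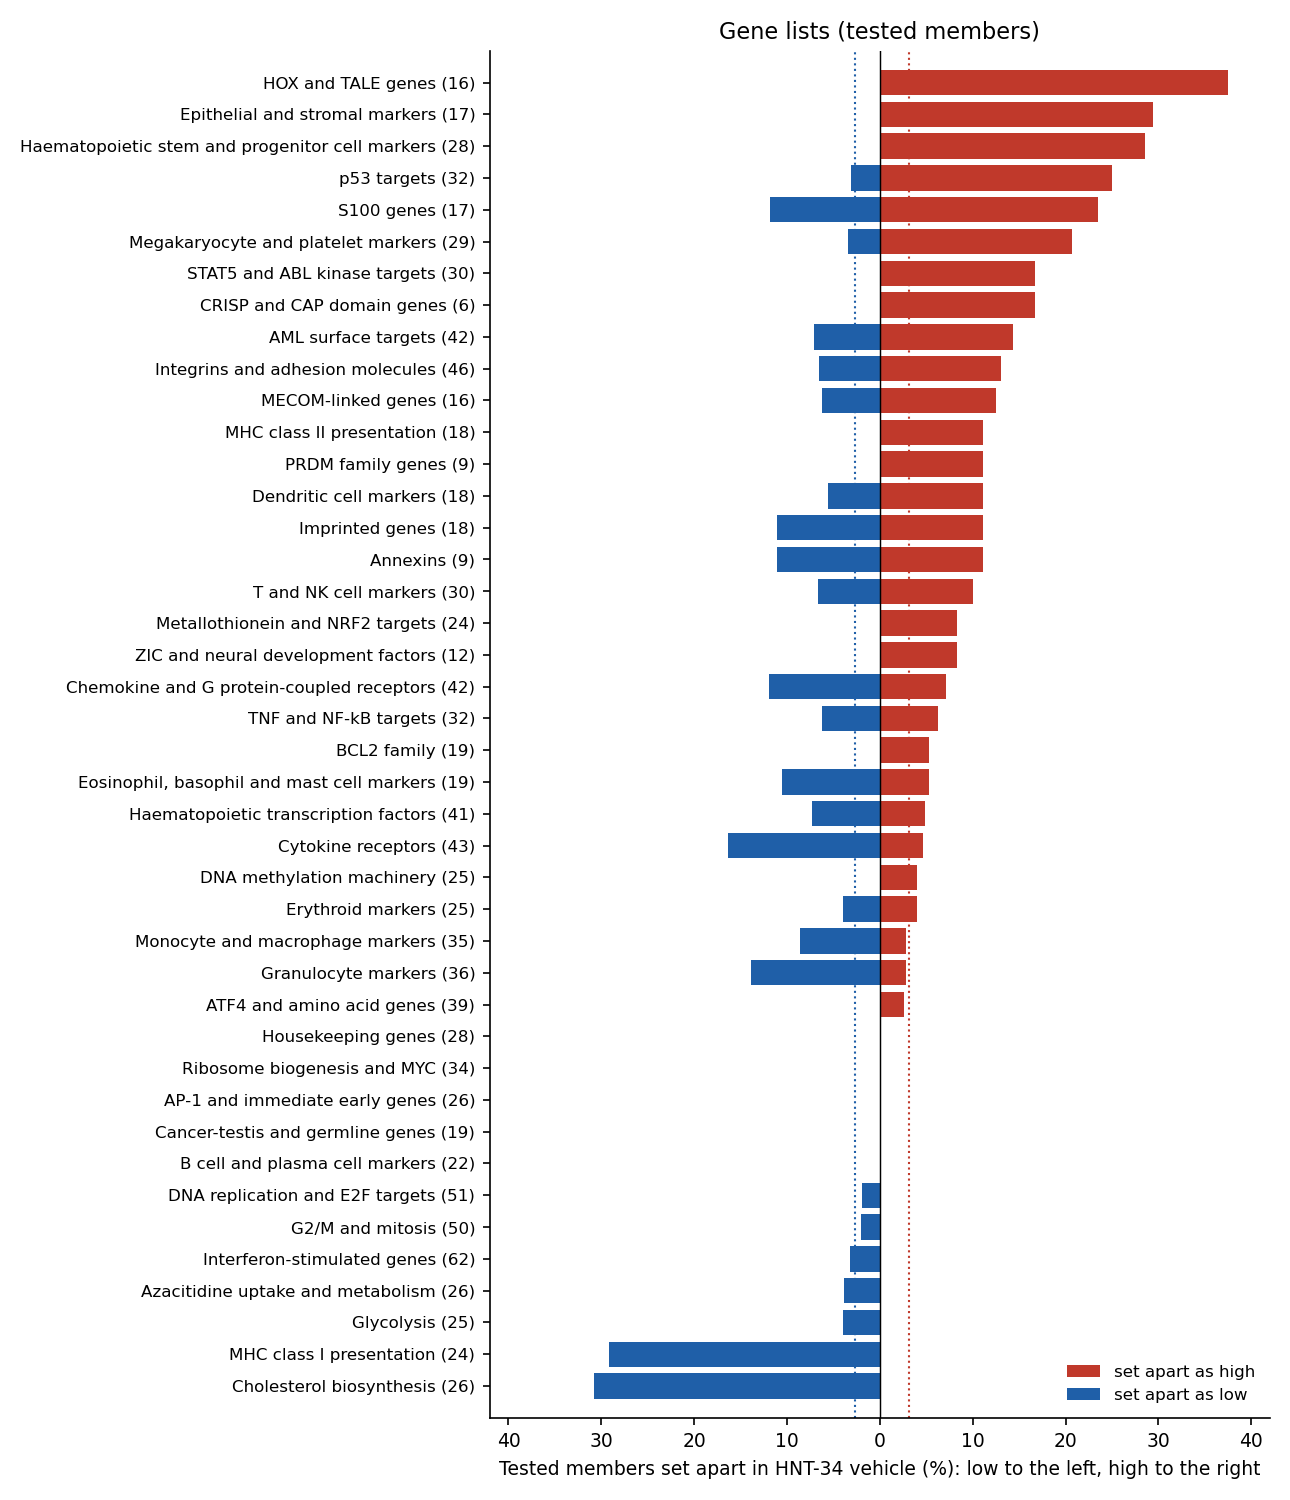
Share of the tested members of each of the 42 gene lists that were set apart in vehicle-treated HNT-34, as high (to the right) or as low (to the left), with the number of tested members in brackets; dotted lines mark the shares over all genes, 3.13% and 2.63%. HOX and TALE genes reach 37.5% on the high side and cholesterol biosynthesis 30.8% on the low side. The set-apart HOXB genes lie close together on chromosome 17.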

How the data were processed

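The authors deposited 1 value per probe set and array, which was read as a log2 signal from its range of 3.26 to 15.34. The submitters' processing notes name affy and RMA; versions and background steps are not given in the sources used here. All 16 arrays shared their quantiles to within 0.00404, and the values were used as deposited. Of 54675 probe sets, 62 were controls, 41091 had 1 gene symbol, 1801 several and 11777 none in the platform annotation, and 41037 were matched by gene identifier to RefSeq. The probe set with the highest mean stood for each of 19775 genes, and 14038 genes were tested, those at or above the array median on 2 or more arrays. A gene bright in HNT-34 alone could thus be tested, whereas a gene dim on all arrays could not.

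A single limma fit (version 3.58.1, R 4.3.3) held all 8 groups, with 8 residual and 4.8 prior degrees of freedom and Benjamini-Hochberg adjustment over all genes at 0.05. The contrasts were HNT-34 minus the equally weighted mean of the other lines, HNT-34 minus each line, and the same on the AZA arrays. The fit was tested on simulated data. The genes named were the markers, the 15 set-apart genes per direction farthest from the nearest line, up to 6 called members per list with the largest difference and members that define a list, the neighbours of MECOM and GATA2, and enzymes of DNA methylation and AZA metabolism. Further list members, VIM and the genes of chromosomes 6 and 17 were named after their values were seen. The comparison, the 42 lists and the rule were chosen with earlier results of these data known. Alternatives in normalization, filter, probe set choice, covariate, comparison lines and left-out arrays were tried.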

Additional observations from a re-analysis of the deposited data

Results flagged for a closer look

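The difference between HNT-34 and the other lines was itself tested between the vehicle and the AZA arrays, as an interaction in limma, for the 30 genes set apart farthest. It changed by an adjusted p under 0.05 in 8 of them, beside 3282 of all 14038 genes (23.4%). The 30 genes were chosen for their large differences on the vehicle arrays, which also enter this test, so that changes toward 0 are favoured by the choice; 7 of the 8 were of that kind, and the p-values are a description. Each of the 8 kept its sign and stayed set apart on the AZA arrays, and the drug may act on the other lines as well as on HNT-34, which these values do not separate. The difference of MECOM was smaller after AZA by -0.47 (SE 0.11, adjusted p = 0.00667), at 7.33 in place of 7.80. That of TM4SF1 changed by -1.56 (adjusted p = 1.90e-06), from 5.34 to 3.78, and that of RAB13 by -1.34 (adjusted p = 5.13e-05), from 5.96 to 4.63. The changes were -0.93 for LOC100506405 (adjusted p = 0.005) and -0.80 for PRSS21 (adjusted p = 0.00406). PURPL moved the other way, by 0.94 (adjusted p = 0.000415), to a difference of 6.63. On the low side, the differences of TNFSF13B and CRY1 were less negative after AZA by 0.65 (adjusted p = 0.000926) and 0.38 (adjusted p = 0.0127).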

How the results depend on the processing

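With 1 value per line, limma called 0 genes higher and 0 lower, where the arrays gave 4250 and 4208; that fit has 3 other lines as its replicates. Without KG1a among the other lines, 791 genes were set apart as high and 679 as low, and 866 and 863 on the AZA arrays. A smallest difference of 2 log2 units left 161 high and 141 low genes, and 162 and 162 on the AZA arrays. The other settings kept each count of all genes within 1.5 times. Leaving out each array in turn gave 3669 to 4335 higher and 3529 to 4270 lower genes, 429 to 439 set apart as high and 365 to 377 as low, and 442 to 460 and 391 to 398 on the AZA arrays. Among 231 genes of the text, 6 pairs of gene and setting changed sign: without HL60, SKIL gave 0.26, PIM1 -0.20 and SESN1 -0.20; without AML-193, FLT3 gave -0.017 and TET2 -0.78; without KG1a, CDA gave -0.38. Further, 244 of 4605 such pairs fell below the threshold, 219 of them with line means. The small difference of B2M lost its call in 13 settings, with values from -0.21 to -0.07. No paired analysis was possible because the replicate numbers follow the order of deposit and pair no samples. Dim signals can understate differences, and 175 of the 369 low genes had HNT-34 signals under the array median.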
